A study of Mus musculus with 5 samples.

Results

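The transcription factors that set up cartilage and bone were examined in whole knee joints of mice lacking both epiphycan and biglycan, set against wildtype joints. The genes were fixed by name as Sox9, Sox5, Sox6, Runx2, Runx3, Sp7, Mef2c, Dlx5 and Trps1, and every probe set carrying one of these symbols in the platform annotation was taken. This gave 17 probe sets for 8 of the 9 genes, among 22690 probe sets in all, of which 22626 were not array controls. Runx2 had no probe set under its symbol in the annotation used here and was not analysed. Sox5 had 4 probe sets, Mef2c 5, Sox9 and Sox6 2 each, and Runx3, Sp7, Dlx5 and Trps1 1 each.

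The double-null pools came from animals null for epiphycan (Epyc) and biglycan (Bgn), small leucine-rich proteoglycans of the cartilage and connective tissue matrix, and the wildtype pools carried neither deletion. All animals were male, 3 months old and C57/Bl6:129 hybrids. Each array held RNA pooled from the tibio-femoral joints of 3 mice, 6 joints per pool, with 3 double-null and 2 wildtype pools. A pool averages its animals, so the spread between arrays is a spread between pools. The labels do not say how the null alleles were made.

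The 5 arrays belong to 2 platform records with the same probe sets, called array types here. Double-null pool 3 and wildtype pool 2 are type A, and double-null pools 1 and 2 and wildtype pool 1 are type B. Values are deposited signals, an intensity on a linear scale. Fold changes are log2, double-null over wildtype, of log2(signal + 32) with array type as a term in the fit, a scale that understates the change of dim probe sets. The standard against which a signal counted as detected was the brightest of 27 Bacillus probe sets, bacterial sequences that mouse RNA does not match. Its signal was 31.4, 63.5 and 27.5 on the arrays of double-null pools 1, 2 and 3, and 38.5 and 36.3 on those of wildtype pools 1 and 2. As a check of the genotypes, the 3 Bgn probe sets passed the test downward (limma adjusted p between 0.00059 and 0.0045), while the dim Epyc probe set, lower on every double-null array, did not (adjusted p = 0.16). The number of arrays limits the precision of every value below. In whole joints fewer cells of a type and less message per cell cannot be told apart.

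Chondrocytes and osteoblasts arise from shared skeletal precursors, and a small set of DNA-binding proteins decides between them. SOX9, an HMG-box protein, is required to form cartilage, and the related SOX5 and SOX6, which have no activation domain of their own, work with it on cartilage matrix genes such as Col2a1 and Acan. RUNX2 and then SP7 (osterix) direct precursors to the osteoblast fate, while RUNX2, RUNX3 and MEF2C drive chondrocytes into hypertrophy, the state that precedes replacement by bone. Several of these factors also act elsewhere in a whole joint. MEF2C works in skeletal muscle and in B lymphocytes, SOX6 in muscle fibres and red cell precursors, and RUNX3 in T and NK cells.

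None of the 17 probe sets passed the test between genotypes (limma with Benjamini-Hochberg adjustment over 22626 probe sets, threshold 0.05). Over the whole array 6 probe sets passed, 0.0265% of those tested, so the members' count of 0 is near the background. At unadjusted p under 0.05 there was 1 member probe set, 5.88% of them, against 5.34% of all probe sets. Log2 fold changes were positive for 9 and negative for 8 probe sets, with a median of 0.013 against -0.0036 over all probe sets. The median size regardless of sign was 0.19, against 0.14 over all. The genotypes did not overlap for 3 member probe sets: 1 had its double-null arrays highest (9.25% of all probe sets did) and 2 had them lowest (9.88% of all did). The 95% intervals differed in width between probe sets and are given below for the genes described.

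**Figure D1:**
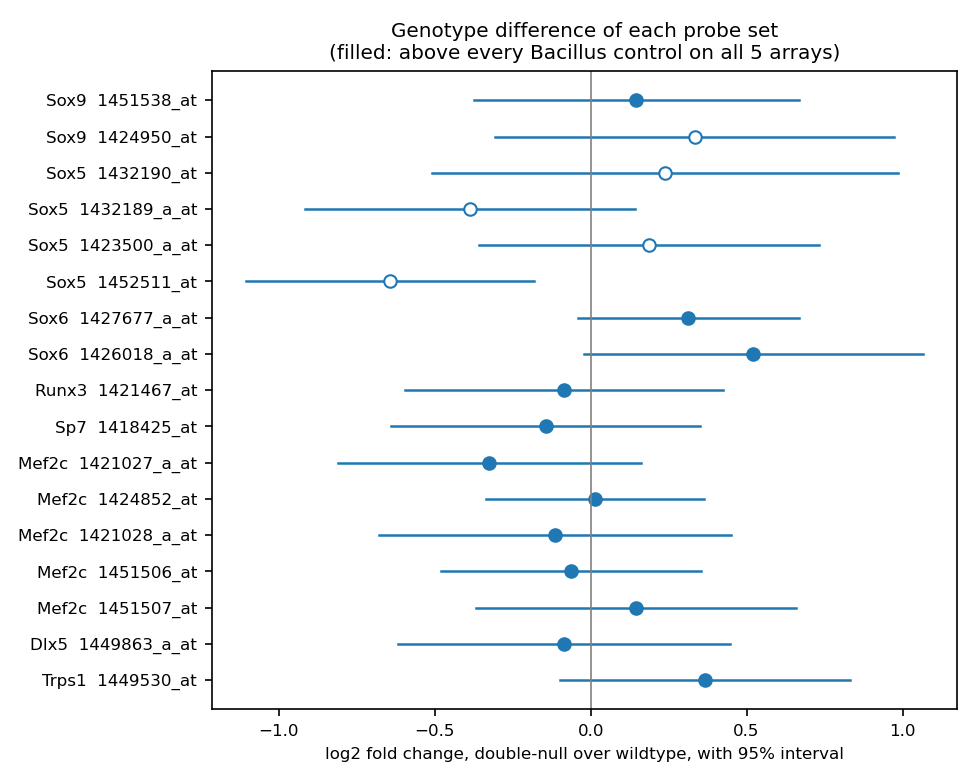
Log2 fold change, double-null over wildtype, for each of the 17 probe sets (y axis, gene and probe set), with its 95% interval from limma (horizontal bar). Filled points lay above every Bacillus control on all 5 arrays. The interval leaves out 0 for 1 Sox5 probe set, whose adjusted p was 0.79.

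Of the members, 12 of 17 probe sets (70.6%) lay above the brightest Bacillus control on every array, as did 63.4% of all probe sets. Among the SOX genes of chondrocytes, Sox9 and Sox5 lay close to the controls. Sox9 on its brighter probe set, 1451538_at, gave 64.7, 64.7 and 91.8 in double-null pools 1, 2 and 3, and 70.8 and 65.5 in wildtype pools 1 and 2. The groups overlapped, and each signal lay above the Bacillus controls of its array, though only just in double-null pool 2. The fold change was 0.15 ± 0.22 (SE) with a 95% interval of -0.37 to 0.67 (limma adjusted p = 0.99).

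The second Sox9 probe set, 1424950_at, gave 53.2, 90.5 and 72.5 in the double-null pools and 76.9 and 27.8 in the wildtype pools. Wildtype pool 2 fell inside the range of the Bacillus controls, and the other 4 arrays lay above it. Both Sox9 probe sets were positive, at 0.15 and 0.33, and both differed more on type A (0.33 and 0.76) than on type B (0.013 and 0.015), where the genotypes were nearly equal. The 8 cartilage markers used to check the tissue (Col2a1, Acan, Col9a1, Col11a2, Matn1, Matn3, Hapln1 and Cnmd) summed to 7857, 7504 and 8563 in double-null pools 1, 2 and 3, and to 14485 and 6624 in wildtype pools 1 and 2. Of these, 7 were above the Bacillus controls on every array and Matn1 was not. Col2a1 made up most of each sum, with 10257 of the 14485 in wildtype pool 1. That pool was the highest for Col2a1, Col9a1, Col11a2, Matn1 and Cnmd, but not for Acan, Hapln1 and Matn3. Wildtype pool 1, with the largest cartilage sum, had Sox9 signals inside the range of the other arrays on both probe sets.

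Sox5 was at the limit of detection, with no probe set above the Bacillus controls on all arrays. Its brightest, 1432190_at, gave 52.5, 22.4 and 99.0 in the double-null pools and 43.1 and 51.3 in the wildtype pools, a fold change of 0.24 ± 0.31. The double-null pools thus held both the lowest and the highest value. Probe set 1423500_a_at was above the controls on 3 of 5 arrays, with a fold change of 0.19.

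The other Sox5 probe sets ran the opposite way. Probe set 1432189_a_at gave 31.4, 58.4 and 37.6 in double-null pools and 70.0 and 62.3 in wildtype pools (-0.39 ± 0.22, adjusted p = 0.92). Probe set 1452511_at gave 26.8, 24.97 and 11.3 in double-null pools and 54.0 and 45.5 in wildtype pools (-0.64 ± 0.19, unadjusted p = 0.014, adjusted p = 0.79). In both, every double-null array lay below both wildtype arrays, and on 1452511_at the 3 double-null signals lay within the range of the Bacillus controls while both wildtype signals lay just above it. The size therefore depends on the added constant, from -1.36 to -0.42 over the alternative settings. With 2 probe sets positive and 2 negative, the Sox5 probe sets gave no common direction.

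Sox6 was well above background on its brighter probe set, and its signal differed more between array types than between genotypes. On 1427677_a_at it gave 249.97, 241 and 775 in double-null pools 1, 2 and 3, and 201 and 614 in wildtype pools 1 and 2. The 775 and the 614 are the type A arrays, so both genotypes had a high and a low level, and the groups overlapped. Within each type the double-null level was the higher, by 0.35 in the type A pair and 0.29 among the type B pools, and the fitted fold change was 0.31 ± 0.15 (interval -0.04 to 0.67, adjusted p = 0.92). The second probe set, 1426018_a_at, gave 74.8, 64.2 and 139 in double-null pools and 51.2 and 71.3 in wildtype pools, a fold change of 0.52 ± 0.23 (interval -0.022 to 1.07, adjusted p = 0.92). Both Sox6 probe sets were thus positive on both array types, without passing the test. Without the array-type term the fold change of 1427677_a_at was 0.060, since type A holds 1 of 3 double-null but 1 of 2 wildtype pools.

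**Figure D2:**
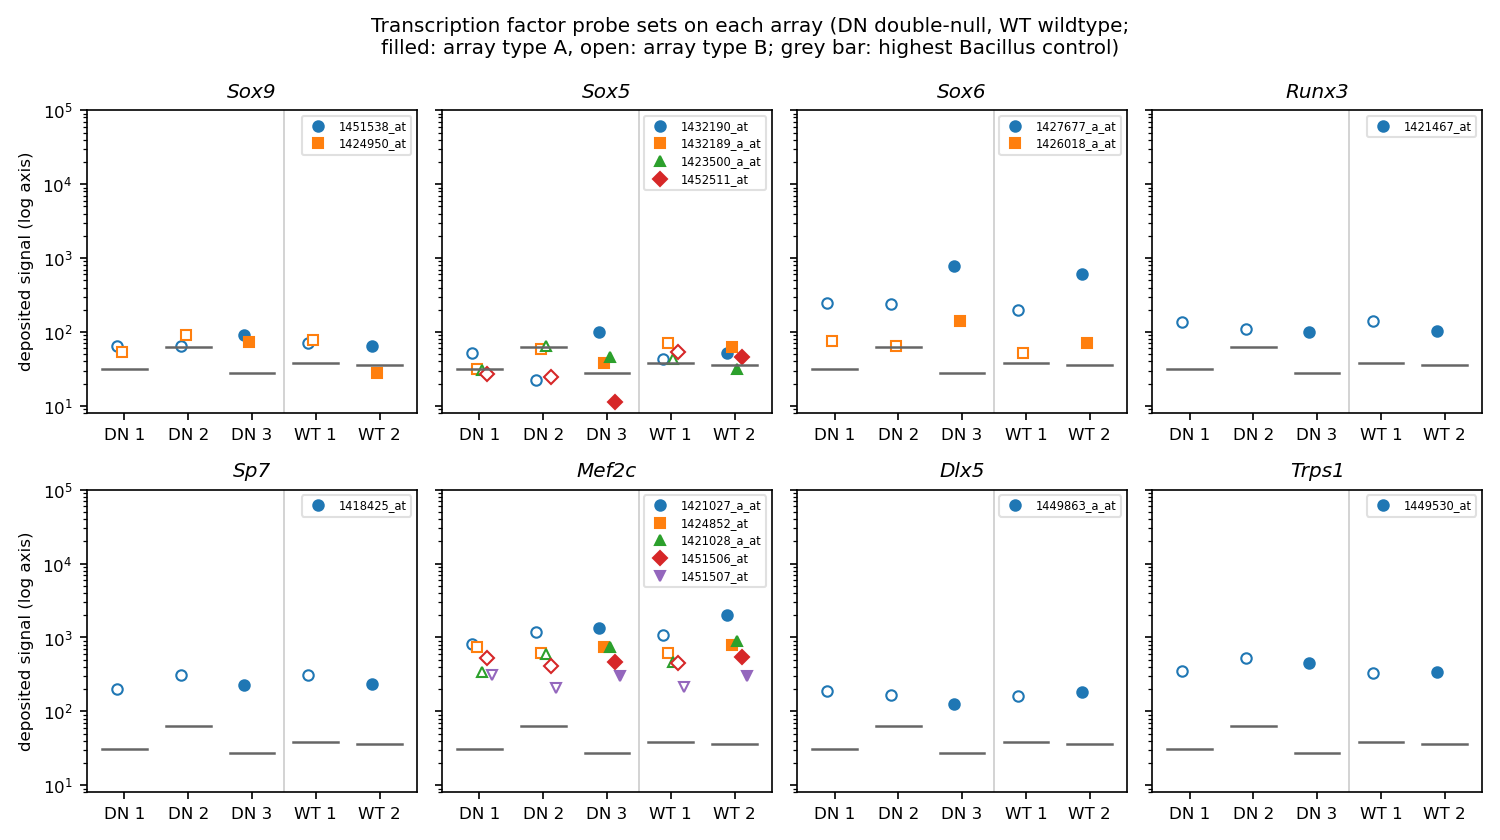
Deposited signal (log y axis) of every probe set of the 8 genes on each array, with double-null pools left of wildtype pools. Filled points are array type A, open points type B, and grey bars give the brightest Bacillus control of that array. Sox9 and Sox5 lie close to the bars, and the brighter Sox6 probe set is high on the filled arrays of both genotypes. The second Sox6 probe set lies just above the bar of double-null pool 2, at 64.2 against 63.5, and Runx3, Sp7, Mef2c, Dlx5 and Trps1 lie above the bars.

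RUNX3 and SP7 stood for the osteoblast and hypertrophic programme, since Runx2 was not analysed. Runx3 (1421467_at) gave 135, 109 and 100.3 in double-null pools and 143 and 102 in wildtype pools, a fold change of -0.085 ± 0.21 with an interval of -0.59 to 0.43. The groups overlapped, and both type A arrays lay below the 3 type B arrays. RUNX3 is also a factor of T and NK cells, and of 8 measured markers of those cells 2 were above the Bacillus controls on all arrays. The 8 signals summed to 746 to 922 in double-null pools and to 1046 and 941 in wildtype pools 1 and 2. Nkg7 made up most of each sum, with 750 of the 1046 in wildtype pool 1. The part of these markers in the Runx3 value was not tested.

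Sp7, the zinc finger factor osteoblasts need downstream of RUNX2, gave 203, 309 and 225 in double-null pools and 306 and 234 in wildtype pools. The highest value of each genotype was nearly the same, and the fold change was -0.14 ± 0.21 (interval -0.64 to 0.35, adjusted p = 0.99). The 6 measured bone markers (Col1a1, Ibsp, Dmp1, Phex, Alpl and Mepe), all above the Bacillus controls on every array, summed to 15732, 20943 and 20028 in double-null pools and 23586 and 15078 in wildtype pools. Col1a1 made up most of each sum, with 16753 of the 20943 in double-null pool 2. Their mean log2 level (quantile normalised, after adding 32), which weights the markers equally, was 10.01, 9.93 and 9.82 in double-null pools and 10.07 and 9.88 in wildtype pools. By that measure double-null pool 1, lowest in Sp7, was above double-null pool 2, highest in Sp7. Wildtype pool 1 was above wildtype pool 2 both in that measure and in Sp7. By the sums, wildtype pool 1 and double-null pool 2 were the highest pools, as they were in Sp7. The part of the bone markers in the Sp7 values was not tested.

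Trps1, a GATA-type zinc finger repressor that regulates chondrocyte differentiation, was the one member whose double-null arrays all lay above both wildtype arrays. Its single probe set, 1449530_at, gave 353, 522 and 452 in double-null pools and 332 and 345 in wildtype pools, or 443 ± 85.2 against 339 ± 9.29 (mean ± SD, n = 3 and 2). The lowest double-null value exceeded the higher wildtype value only slightly. The fold change of 0.37 ± 0.19 was much alike on type A (0.37) and type B (0.36), and it did not pass (interval -0.099 to 0.83, limma adjusted p = 0.92).

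Dlx5, a homeobox gene of early osteoblasts and of maturing chondrocytes, gave 190.1, 169 and 127 in double-null pools and 162 and 181 in wildtype pools. The groups overlapped, and the fitted value of -0.085 ± 0.22 joined opposite signs, -0.44 on type A and 0.18 on type B.

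Mef2c, a MADS-box factor of hypertrophic cartilage, muscle and B cells, was measured by 5 probe sets, and all 5 lay far above the Bacillus controls on each array. Its brightest, 1421027_a_at, gave 825, 1173 and 1361 in double-null pools and 1065 and 2019 in wildtype pools, a fold change of -0.33 ± 0.20 (interval -0.81 to 0.16, adjusted p = 0.94). Probe set 1424852_at gave 740, 619 and 739 in double-null pools and 622 and 797 in wildtype pools, at 0.013 ± 0.15. Wildtype pool 2 was the highest array on both probe sets, and the groups overlapped on all 5. Probe sets 1421028_a_at, 1451506_at and 1451507_at were at -0.11, -0.062 and 0.15. Thus 3 probe sets were negative and 2 positive, and each interval held 0.

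The Mef2c probe sets differed in how they followed array type. On 1421027_a_at and 1421028_a_at both type A arrays lay above the 3 type B arrays, with type A minus type B at 0.69 and 0.76 (unadjusted p = 0.013 and 0.015, adjusted p = 0.56 for each). On 1424852_at, 1451506_at and 1451507_at the types overlapped, at 0.23, 0.11 and 0.28. For Sox6 1427677_a_at the same difference was 1.52 ± 0.15 (2.86-fold, unadjusted p = 2.7e-05, adjusted p = 0.29), and for its second probe set it was 0.52. So 3 of 17 member probe sets were higher on both type A arrays than on any type B array, against 13.7% of all probe sets, and no probe set on the whole array passed the adjusted test for array type (limma; 1614 of 22626 had unadjusted p under 0.05, 7.13%). Where dim probe sets were left out, the type difference of Sox6 passed (limma adjusted p = 0.023 with those above the 40th percentile of intensity). How many of the 13575 probe sets in that fit passed for array type was not counted, so no background share stands beside this value.

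Skeletal muscle markers differed between the array types as well. The 12 markers (Acta1, Myh4, Myh1, Myh2, Myh7, Ckm, Mylpf, Tnnt3, Tnni2, Atp2a1, Pvalb and Des) summed to 83524 in double-null pool 3 and 68826 in wildtype pool 2, the type A pools. On type B the sums were 47330 and 34130 in double-null pools 1 and 2 and 57307 in wildtype pool 1. Of the 12, 11 were higher on type A, with a median type difference of 0.99, and 10 had unadjusted p under 0.05 upward, against 4.07% of all genes by their brightest probe set. Of the 12, Myh2, a fast myosin heavy chain, had the type difference closest to that of Sox6, at 1.51. By genotype the 2 genes ran in opposite directions within each array type. Double-null minus wildtype was negative for Myh2 (type A: -0.84, type B: -0.41) and positive for Sox6 1427677_a_at. Myh2 was not typical of the list. Most of the other markers were positive on type A and negative on type B, such as Des (0.53 and -0.24) and Pvalb (0.27 and -0.48). Myh4 and Myh7 were positive on both types, as Sox6 was, and Tnni2 was negative on both, as Myh2 was. The fitted genotype fold change was negative for 8 of the 12 markers and positive for 4. The slow myosin gene Myh7 was the 1 marker not higher on type A, at -0.011. B lineage markers summed to 2888 and 3372 in double-null pools 1 and 2 and 3855 in wildtype pool 1 on type B, and to 3781 in double-null pool 3 and 3936 in wildtype pool 2 on type A. Of 9 measured B lineage markers, 8 were above the Bacillus controls on every array. On type A 6 of the 9 were higher, with a median type difference of 0.15. Of 5 measured erythroid (red cell) markers 2 were higher on type A, with a median of -0.081. Of all genes by their brightest probe set 47.3% were higher on type A. The part of muscle, B lineage and red cells in the Sox6 and Mef2c values was not tested, and array type and the pools on it cannot be told apart.

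**Figure D3:**
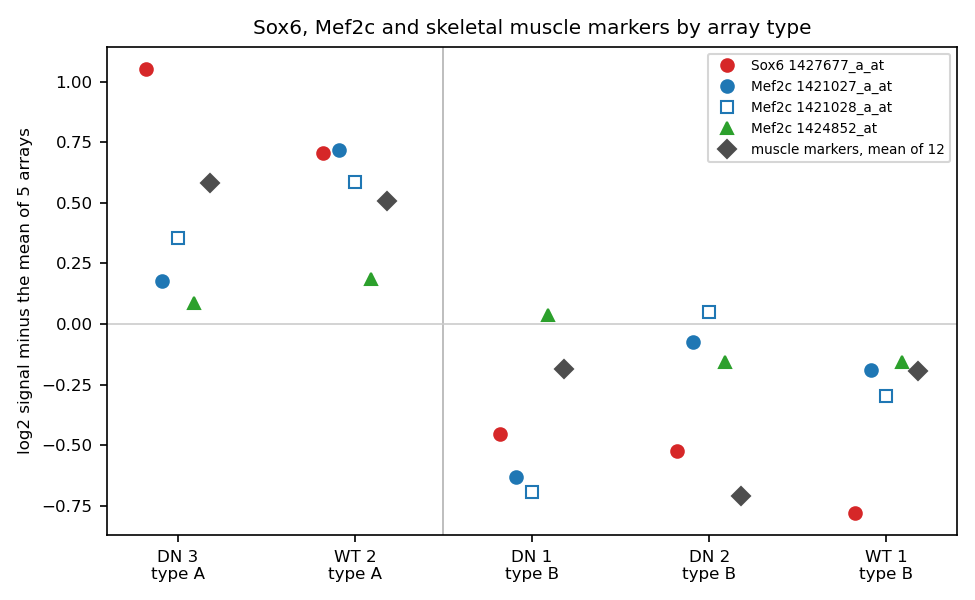
Log2 signal minus the mean of the 5 arrays (y axis, quantile normalised, after adding 32) for Sox6, 3 Mef2c probe sets and the mean of 12 muscle markers, with type A arrays left of type B and double-null pools left of wildtype within each type. Sox6 ran from -0.78 to 1.05 and was above its mean on both type A arrays, as were the muscle markers at 0.58 and 0.51.

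The bases before the starts of Sox6 and Mef2c are shown, 250 bases up to the most upstream RefSeq start listed for each (GRCm38.p6). The genes were chosen because 1 of 2 Sox6 and 2 of 5 Mef2c probe sets were higher on both type A arrays. Any link of these bases to that difference was not tested. The promoter set used here held Runx2, Runx3, Sox5, Sox6 and Mef2c. That it lacked the other members does not mean that RefSeq lists no start for them. It listed 6 starts for Sox6 and 3 for Mef2c, of which only the most upstream is shown. Capitals mark matches, on either strand, to the letters TGTGGT, read by RUNX proteins, ACAAT, the core read by SOX proteins, or CANNTG, the E-box read by basic helix-loop-helix factors.
Sox6, chr7:116038745-116038994, minus strand: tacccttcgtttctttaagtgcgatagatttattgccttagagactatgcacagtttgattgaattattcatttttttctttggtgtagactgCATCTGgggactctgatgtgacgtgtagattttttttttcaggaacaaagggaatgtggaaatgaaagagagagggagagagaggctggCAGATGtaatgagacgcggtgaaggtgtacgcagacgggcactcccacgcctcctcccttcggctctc
Mef2c, chr13:83503784-83504033, plus strand: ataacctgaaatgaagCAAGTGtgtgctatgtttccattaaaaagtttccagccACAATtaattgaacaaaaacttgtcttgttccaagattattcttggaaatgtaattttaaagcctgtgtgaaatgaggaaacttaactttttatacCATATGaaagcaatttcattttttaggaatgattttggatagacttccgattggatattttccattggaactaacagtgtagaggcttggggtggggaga
The Sox6 window held 2 E-box matches, and the Mef2c window held 2 E-box matches and 1 SOX match. Windows of this length before all 32851 listed starts held an E-box match in 66.2% and a SOX match in 27.7%. Neither window held the RUNX letters, which 14% of all windows did. A match is a run of letters and not a measured site.

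The genotype difference was then read within each array type, where type A sets 1 double-null against 1 wildtype pool and type B sets 2 against 1, so neither has a replicate check for both genotypes. The sign was the same on both types for 12 of 17 member probe sets, 70.6%, against 48.2% of all probe sets. Sox6, Trps1, Sox9, Runx3 and Sp7 kept 1 sign on every probe set. The 5 that changed sign were Dlx5, the brightest Sox5 probe set and Mef2c 1424852_at, 1451506_at and 1451507_at. Probe sets of 1 gene share their message, so these are not 17 separate observations.

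**Figure D4:**
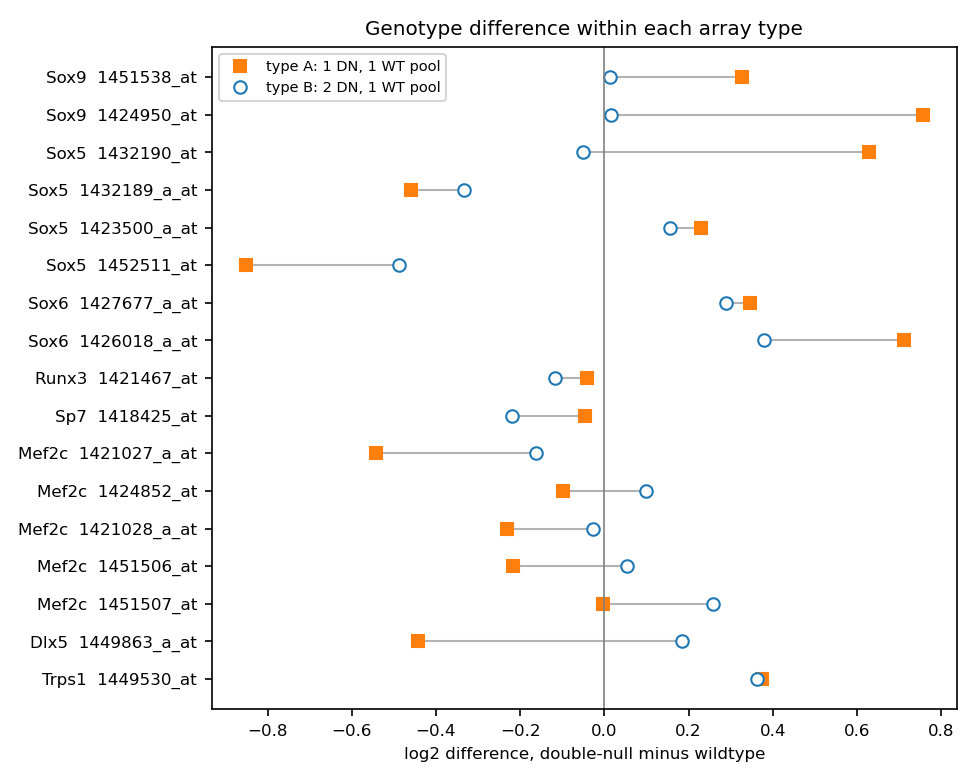
Log2 difference, double-null minus wildtype, within array type A (squares, 1 pool of each genotype) and array type B (open circles, 2 double-null pools and 1 wildtype pool) for each probe set (y axis). Trps1 lay at 0.37 and 0.36, while Dlx5 lay at -0.44 and 0.18.

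Genes known to act downstream of these factors or beside them were taken by their brightest probe set. Across these lists 0 of 78 genes passed over all 22626 probe sets (limma), against 2 of 12393 genes by their brightest probe set (0.0161%). At unadjusted p under 0.05, 2.9% of all genes were higher and 2.51% lower, and the median fold change of all genes was -0.012.

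The cartilage genes bound or activated by the SOX factors had 16 measured of 18, 5 positive and 11 negative, with a median of -0.20. At unadjusted p under 0.05 there was 1 higher and there were 2 lower. Comp, a pentameric matrix glycoprotein of cartilage and tendon, gave 5180, 3988 and 3934 in double-null pools and 2857 and 1989 in wildtype pools, at 0.83 ± 0.18 (adjusted p = 0.57). Its groups did not overlap. Of 7 measured markers of tendon and fibrous tissue (8 written), 5 were above the Bacillus controls on every array, and Scx and Kera were on 2. Their median fold change was 1.002, with 4 of 7 at unadjusted p under 0.05 upward and 0 past the adjusted test. These 4 were Col3a1 (1.46), Tnmd (1.03), Thbs4 (1.02) and Fmod (1.002), and in each the double-null arrays all lay above the wildtype arrays. So did 9.25% of all probe sets. Of the other markers, Scx was positive, while Kera (-0.31) and Col1a1 (-0.041) were negative. The 7 signals, mostly Col1a1 and Col3a1, summed to 22459.5, 26868 and 27862 in double-null pools and to 23408 and 15475 in wildtype pools. Their part in the values of Comp and of Scx, described below and itself on that marker list, was not tested. Col9a1, a chain of the collagen that decorates type II fibrils, gave 859, 869 and 752 in double-null pools and 1221 and 917 in wildtype pools (-0.42 ± 0.14, adjusted p = 0.83), and Cnmd, encoding the vessel inhibitor chondromodulin, was at -0.43. Both had every double-null array below both wildtype arrays. Matn4, encoding a matrilin, was at 0.42. The SOX targets therefore held members on either side, and Col2a1 itself gave 4246, 4394 and 5704 in the double-null pools and 10257 and 3731 in the wildtype pools, with wildtype pool 1 far above the other arrays.

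Bone and hypertrophic genes downstream of RUNX2 and SP7 had 14 measured of 18, 9 positive and 5 negative, with a median of 0.034, and 0 at unadjusted p under 0.05 in either direction. The 4 with the smallest p were Mepe, a phosphoglycoprotein of osteocytes (-0.33), Tnfsf11, the osteoclast factor RANKL (0.28), Tnfrsf11b, its decoy receptor osteoprotegerin (0.46), and Sost, the Wnt inhibitor of osteocytes (0.31). The double-null and wildtype pools overlapped for Mepe, Tnfrsf11b and Sost in deposited signals. Tnfsf11 gave 73.9, 74.9 and 51.7 in double-null pools and 51.2 and 46.4 in wildtype pools, which were apart as deposited but overlapped after quantile normalisation.

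Partners and inhibitors of RUNX and SOX proteins had 17 measured of 22, 11 positive and 6 negative, with a median of 0.090. At unadjusted p under 0.05 there were 2 higher, Wwtr1 and Maf. Wwtr1, encoding TAZ, a coactivator that binds RUNX2, gave 470, 304 and 380 in double-null pools and 257 and 246 in wildtype pools (0.55 ± 0.21, adjusted p = 0.91). All double-null arrays lay above the wildtype arrays. Maf, at 0.53, was above the Bacillus controls on 1 array only. Hdac5, a class II histone deacetylase, was at -0.40, with 219, 236 and 273 in double-null pools and 360 and 316 in wildtype pools, and Zfp219, a SOX9 partner, was at 0.46. Cbfb, the shared partner of the RUNX proteins, was at 0.18 (named outside the rule for its role).

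The other transcription factors of cartilage, bone and tendon had 31 measured of 35, 17 positive and 14 negative, with a median of 0.011 and 0 at unadjusted p under 0.05. Scx (scleraxis, of tendon cells) was at 0.57 and Msx2 (a homeobox factor of bone precursors) at 0.42, with Scx above the Bacillus controls on 2 arrays and Msx2 on none. Atf4, a factor of osteoblast maturation, gave 1063, 917 and 1006 in double-null pools and 1213 and 1130 in wildtype pools (-0.26 ± 0.14, adjusted p = 0.92), with no overlap of the groups. Hif1a, the hypoxia factor of growth plate cartilage, was at -0.53, with -1.15 on type A and -0.070 on type B.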

How the data were processed

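Per the labels' protocols, Trizol and column-purified RNA of 5 pools of whole tibio-femoral joints was labelled with biotin and put on Affymetrix arrays. The authors deposited 1 signal intensity for each probe set, on a linear scale. Per the submitters' processing notes the tool was MAS5, and its settings are not given here. The 2% trimmed mean of each array lay near 250.1, and signals ran from 0.0423 to 26173. Detection calls were not used.

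The log2 of each deposited signal plus 32 was taken, and the 5 arrays were quantile normalised. All 22626 probe sets other than controls were fitted with limma 3.58.1 in R 4.3.3 (lmFit, then eBayes with an intensity trend, a two-sided test; residual degrees of freedom 2, prior 4.59), with array type as a term and Benjamini-Hochberg adjustment at 0.05. Unlike a fit over bright genes only, this kept every member: 10 of 17 member probe sets had a mean above the 40th percentile. Intervals are 95%. Symbols came from the platform annotation, with 20393 probe sets of 1 symbol, 691 of several and 1606 of none. Of those with 1 symbol, 20364 were looked up through Entrez numbers, and the symbol was replaced where it differed. The fit was also run on data simulated from its own fitted means and spread, with planted changes larger than any fitted member value. Such a run cannot test the model's assumptions on these pools. Named by rule were all members, Epyc and Bgn, and the 4 genes of smallest p per pathway list. Cbfb, Col2a1 and single genes of the marker lists were named outside this rule. Members and lists were chosen with earlier results of these data known. Nothing says which animals or litters made up a pool beyond its number. Alternatives changed the scaling, constant, intensity filter, probe set summary, covariates, trend and arrays.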

Additional observations from a re-analysis of the deposited data

How the results depend on the processing

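Over 17 alternative settings, 0 member probe sets and 0 list genes passed (limma; 0 to 3 member probe sets had unadjusted p under 0.05). Of 253 member fold changes under these settings 230 kept their sign and 23 turned, and 9 of the 17 probe sets kept 1 sign in every setting run. The count over all probe sets, 6, was 19 with the filter at the 40th percentile, 23 with that at the 60th, and 1 with the mean over the probe sets of a gene. It was 0 with array type B alone (1782 at unadjusted p under 0.05). Leaving out single arrays gave 0 to 5, with 0 without double-null pool 3, wildtype pool 1 or wildtype pool 2 (1770, 1113 and 1782 at unadjusted p under 0.05).

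The deviations of same-numbered pools from their group means had correlations of 0.0074 and -0.11 across probe sets. With 2 wildtype pools those deviations mirror each other, so the correlations are not separate checks. The pools numbered 1 also share an array type, while those numbered 2 do not. Whether the numbers pair the pools therefore cannot be decided from these values. With a replicate block in place of the array-type term, 3 probe sets passed, and the sign turned for Sox6 1427677_a_at (-0.45), Runx3 (0.073), Mef2c 1424852_at (-0.074), Sox5 1432190_at (-0.14) and Dlx5 (0.12). That fit no longer carries array type. Without the array-type term Mef2c 1424852_at was at -0.025. Array type B alone gave Sox5 1432190_at at -0.048, Dlx5 at 0.18 and Mef2c 1451506_at at 0.054. The mean over its probe sets put Sox5 at -0.15. Without single arrays, values ran from -0.32 to 0.055 for Mef2c 1421028_a_at, -0.10 to 0.099 for 1424852_at, -0.0053 to 0.26 for 1451507_at and -0.22 to 0.053 for 1451506_at. They ran from -0.16 to 0.00027 for Runx3, -0.051 to 0.63 for Sox5 1432190_at and -0.44 to 0.18 for Dlx5. Without changing sign they ran from 0.015 (without wildtype pool 2) to 0.75 (without wildtype pool 1) for Sox9 1424950_at and from 0.011 (without double-null pool 3) to 0.33 (without wildtype pool 1) for 1451538_at. Likewise they ran from -0.26 (without double-null pool 2) to -0.0080 (without double-null pool 1) for Sp7, from -0.54 (without wildtype pool 1) to -0.16 (without wildtype pool 2) for Mef2c 1421027_a_at and from 0.071 (without double-null pool 2) to 0.32 (without double-null pool 1) for Sox5 1423500_a_at. Without double-null pool 3 or wildtype pool 2, only 1 type A array is left, and the array-type term absorbs it. Both fits then rest on the type B arrays and nearly repeat the setting of array type B alone, with Dlx5 at 0.18 in each. They are not separate checks. Without wildtype pool 1, type B holds no wildtype array, so the genotype value rests on the type A pair alone, 1 array against 1. That fit nearly repeats the type A differences, with Sox9 1424950_at at 0.75 and Dlx5 at -0.44. The cause of the remaining changes was not tested. Trps1 stayed between 0.24 and 0.49 over all settings, and the type difference of Sox6 1427677_a_at between 1.02 and 1.64. Dim signals limit Sox9 and Sox5.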
